A study of Schmidtea mediterranea with 96 samples.

Results

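Planarians regrow missing body parts from a population of dividing cells called neoblasts, which are stem cells scattered through the body and lost after strong irradiation. After amputation the wound closes, wound-induced genes are switched on, and neoblasts and their daughters build a blastema, the outgrowth in which new tissue forms. The transcripts described here are those of Schmidtea mediterranea whose largest difference from freshly cut fragments fell at 36 or 48 hours of regeneration. A transcript was a member if the mean FPKM (fragments per kilobase of transcript, scaled to the depth of the library) at its best time, the later time with the largest absolute log2 ratio of mean + 1 to the 0 hr mean + 1, was at least 2 FPKM and that log2 ratio, called L below, was at least 1. The rule gave 201 members of 36035 transcripts, 81 with their best time at 36 hr and 120 at 48 hr, which is 0.558% of the table. Members were thus chosen by the mean FPKM values of the time course, so every time-course value below is a description with no test, and tests are given only for the separately measured sorted cells and whole animals.

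The series held 96 poly(A) RNA-seq libraries, all labelled wild type. The time course had 17 times, from 0 to 72 hr and from 4 to 14 days after small fragments were cut from one side of the animal, with 4 libraries at each. Intact untreated worms were compared with worms collected 24 hours after 10000 rads (3 libraries each). Cells were sorted by Hoechst staining into X1, X2 and Xins (3 libraries each), or after fixation by PIWI-1 protein into PIWI-1 high, low and negative (4 libraries each). X1 cells are known as dividing neoblasts, X2 as a mixture of neoblasts and early daughters, and Xins as cells insensitive to irradiation; PIWI-1 is an Argonaute family protein of neoblasts that persists in their early daughters. Worms had been starved for at least 7 days, and each whole-worm library was made from 5 pooled worms, while the number of fragments per time-course library is not stated; asexual CIW4 and sexual S2F8 animals were kept, and the labels do not say which strain gave which library. The sorts are enrichments, not pure types, and in whole animals or fragments fewer cells of a type and less RNA per cell cannot be told apart. The members are known here only by their transcript identifiers, so neither the stage nor the sorts were checked against named marker genes.

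The time-course libraries held 9.54 to 20.2 M reads (M stands for mega), the Hoechst sorts and whole animals 33.8 to 40.1 M reads, and the PIWI-1 sorts 24.2 to 44.3 M reads, as recovered from the steps of the FPKM values. One read per kilobase was worth 0.105 FPKM in the shallowest library and 0.0226 FPKM in the deepest. Nothing in the labels says that libraries of a group came from separate cultures or cohorts, so a p-value speaks only of the scatter among these libraries, which may be technical.

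8 time-course libraries stood apart in the members. Of these, 2 lay at 36 hr and 3 at 48 hr, the best times of the members, with 2 more at 60 hr and 1 at 24 hr. A library's score was the median over the members of log2(FPKM + 1), centred over all libraries, minus the same median over the other transcripts. At 48 hr libraries 1, 2 and 4 scored 1.05, 1.09 and 1.11 and library 5 scored 0.0118. At 36 hr libraries 3 and 4 scored 1.30 and 1.18, and libraries 2 and 6 scored 0.440 and 0.0564. At 60 hr libraries 2 and 6 scored 0.958 and 0.932 against 0.146 and -0.0871, and at 24 hr library 6 scored 0.834 against 0.0906 to 0.169 in the other 3. The libraries of one time were thus split by a gap of 0.665 (24 hr), 0.740 (36 hr), 1.03 (48 hr) and 0.785 (60 hr), while the largest gap at any of the other 13 times was 0.202. Between 150 and 182 of the 201 members were at least 2-fold over the 0 hr mean (on FPKM + 1) in each of the 8 libraries, against 42 to 96 in the other 8 libraries of those times.

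**Figure D1:**
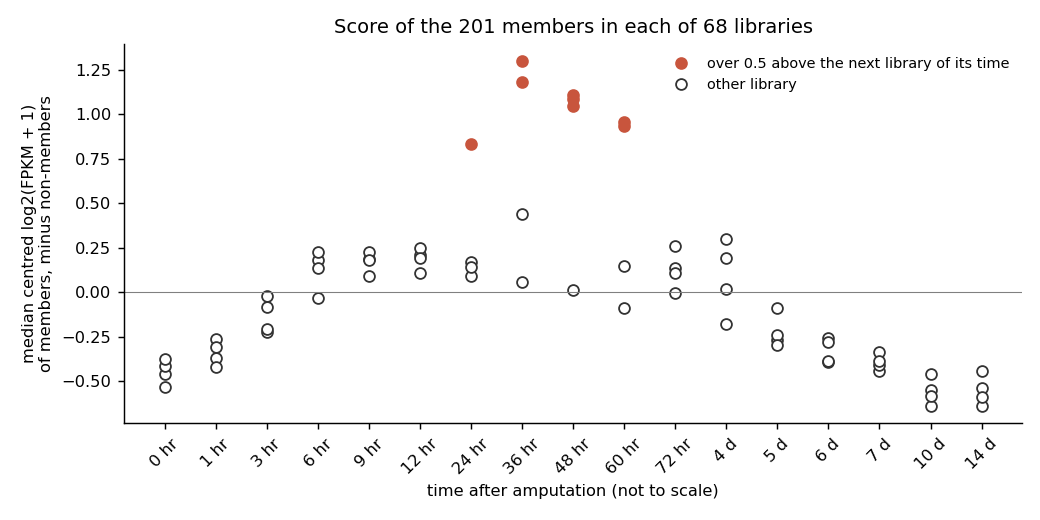
Score of the members in each time-course library (vertical axis, log2 units; 1 point per library, 4 per time) by time after amputation (horizontal axis, categories not to scale). The 8 filled points at 24, 36, 48 and 60 hr lie between 0.834 and 1.30; no open point is above 0.440.

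Transcripts that are not members also varied between these libraries. The largest component of variation within times, computed over 13658 transcripts that are not members and holding 21.8% of that variance, had loadings of 0.0579 to 0.268 in these 8 libraries and of -0.351 to -0.0372 in the other 8 at the same times. Centring within times forces loadings of both signs at each time, and the 52 libraries of the other times had loadings of -0.213 to 0.163, a range that overlaps both. The 8 libraries held 9.54 to 18.1 M reads, beside 9.88 to 20.2 M reads in the other 60, and no replicate number was common to the 4 times. The part of any cause in this split was not tested. The membership and the course of the median L are therefore given with all 68 libraries and without these 8, a choice made after seeing the data. Most other time-course results, among them when L rose, overlap with 0 hr and the correlation of profiles, are given with all 68 libraries only.

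Without the 8 libraries the rule gave 122 transcripts, of which 37 were among the 201 members (18.4% of the 201 and 30.3% of the 122). These 37 are called kept members below, and the remaining 164 the other members. Leaving out the 8 took away 3 of the 4 libraries at 48 hr and 2 of the 4 at 36 and at 60 hr. Values at 48 hr without the 8 are thus those of library 5 alone. The split therefore rests on few libraries, and the word kept is no measure of robustness. Of the 201, 75 still had an L of at least 1 at 36 or 48 hr without the 8 libraries. The best time of the other members moved to 4 days for 38, to 12 hr for 33, to 60 hr for 18 and to 9 hr for 17, and it stayed at 36 or 48 hr for 12 whose L then fell short of 1.

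With all libraries the median L at the best time was 1.42 (quartiles 1.15 and 2.10), the median level 8.10 FPKM at 0 hr and 27.4 FPKM at the best time. L was at least 2 in 59 members and at least 3 in 27. The lowest L inside the threshold was 1.00 and the highest outside it 0.9998; 33 members lay under 1.1 and 51 transcripts between 0.9 and 1 missed the rule. The lowest mean FPKM inside was 2.22, and the only transcript kept out by its level had 1.89 FPKM. All 4 libraries of the best time lay above all 4 at 0 hr for 155 members, including 37 of 37 kept members and 118 of 164 others; among all transcripts of at least 2 FPKM this held for 31% at 36 hr and 33.9% at 48 hr, a share the rule leaves without a reading. The highest library of the best time was over 4-fold the lowest for 1 kept member and 60 others, against 1.72% and 1.47% of all such transcripts at 36 and 48 hr.

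The courses of the kept and other members at 36 and 48 hr, and what leaving out the 8 libraries does to them there, are set by how the 2 sets were split and are given as a description. The median L of the kept members was 0.43 at 6 hr, 0.74 at 12 hr, 0.95 at 24 hr, 1.18 at 36 hr and 1.09 at 48 hr, then 1.03 at 72 hr, 0.83 at 5 days and 0.52 at 14 days. Without the 8 libraries it was 1.19 at 36 hr and, in library 5 alone, 1.18 at 48 hr. The median L of the other members was 0.78 at 12 hr and 0.78 at 24 hr, 1.39 at 36 hr, 1.44 at 48 hr and 1.24 at 60 hr, then 0.57 at 72 hr and 0.00 at 14 days. Without the 8 libraries it was 0.47 at 24 hr, 0.69 at 36 hr, 0.40 at 48 hr and 0.48 at 60 hr. L reached 0.5 of its highest value by 12 hr in 26 of 37 kept members and 87 of 164 others, and first at 36 hr in 2 and 54. It stayed at or over 0.5 of that value at a median of 11 times in the kept members and 6 in the others. That highest value is the one with all 68 libraries, which the 8 libraries raised in the other members. These counts are therefore also set in part by the split and are only a description.

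**Figure D2:**
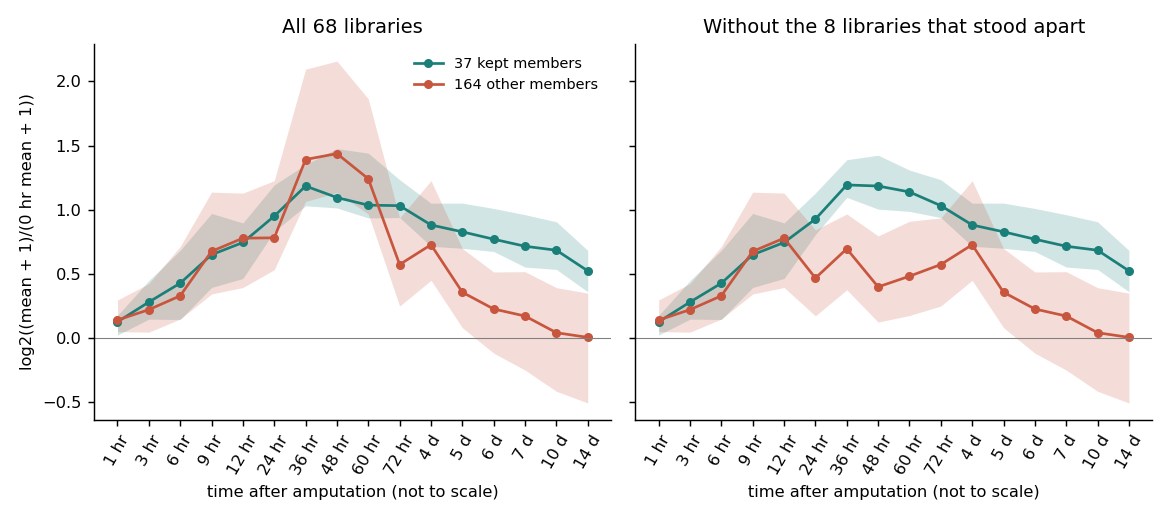
Median L (log2 ratio of mean FPKM + 1 to the 0 hr mean + 1; lines) and quartiles (bands) of the 37 kept and 164 other members at the 16 later times, with all 68 libraries (left) and without the 8 that stood apart (right). The kept members stand near 1.18 at 36 hr in both panels; the others stand at 1.44 at 48 hr on the left and at 0.40 on the right, a contrast that the split itself sets.

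At 14 days, 108 of the 201 members had an absolute L under 0.5, 50 had an L of at least 0.5 and 43 of at most -0.5. The kept members made up 21 of those 50 and 1 of those 43. The members' profiles over the 17 times had a median pairwise Pearson r of 0.714, with 0.809 among the kept and 0.745 among the others; the rule chose them for a shared best time, so this describes the list. Members had a median transcript length of 1272 bases, against 1060 for the 23496 transcripts that reached 1 FPKM at some time. In intact untreated worms 27 members were under 1 FPKM, 25 of them among the other members.

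SMED30022734 had the largest L of all members, 7.11 at 48 hr. Its 4 libraries at 0 hr stood at 5.06, 9.75, 6.60 and 9.73 FPKM. At 48 hr libraries 1, 2 and 4 stood at 1746, 1380 and 1605 FPKM and library 5 at 124 FPKM. At 36 hr libraries 3 and 4 stood at 1543 and 1388 FPKM, and libraries 2 and 6 at 135 and 36.8 FPKM. The high values are those of the libraries that stood apart, and at both times the low libraries were still above every 0 hr library. At 60 hr libraries 2 and 6 stood at 1773 and 2089 FPKM against 46.8 and 4.75 FPKM, the last below every 0 hr library. At 4 days, where no library met the criterion for standing apart, library 6 was at 1427 FPKM and library 5 at 5.32 FPKM. Its L at 36 or 48 hr without the 8 libraries was 3.83.

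SMED30033800 had an L of 6.14 at 48 hr. Its libraries at 0 hr stood at 1.92, 2.36, 1.98 and 0.971 FPKM, and at 48 hr at 274, 283, 226 and, in library 5, 4.28 FPKM. At 36 hr it stood at 324 and 310 FPKM in libraries 3 and 4, and at 11.6 and 2.35 FPKM in libraries 2 and 6. The lower of these overlaps the 0 hr range. At 12 hr, where no library stood apart, all 4 libraries were at 16.1 to 27.3 FPKM, above every 0 hr library. 1 library at 3 hr was at 159 FPKM, with the other 3 at 2.53 to 5.16 FPKM. Its L at 36 or 48 hr without the 8 libraries was 1.51.

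SMED30002753, a kept member, had the largest L at 36 hr among members whose libraries did not overlap those of 0 hr, 3.43. Its level was 43.4 ± 3.79 FPKM at 0 hr (SD, n = 4), 139 ± 12.5 FPKM at 6 hr, 234 ± 18.3 FPKM at 12 hr and 345 ± 42.9 FPKM at 24 hr. At 36 hr its libraries stood at 440, 579, 596 and 292 FPKM, the last in a library that did not stand apart. All of them lay above every 0 hr library. It was down to 75.7 ± 3.44 FPKM at 14 days, still above every 0 hr library. SMED30017805, by contrast, stood at 70.5 and 56.7 FPKM in libraries 3 and 4 of 36 hr and at 9.93 and 6.00 FPKM in libraries 2 and 6, after 1.29 to 5.74 FPKM at 0 hr. Its L was 3.32 with all libraries and 1.28 at 36 or 48 hr without the 8.

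**Figure D3:**
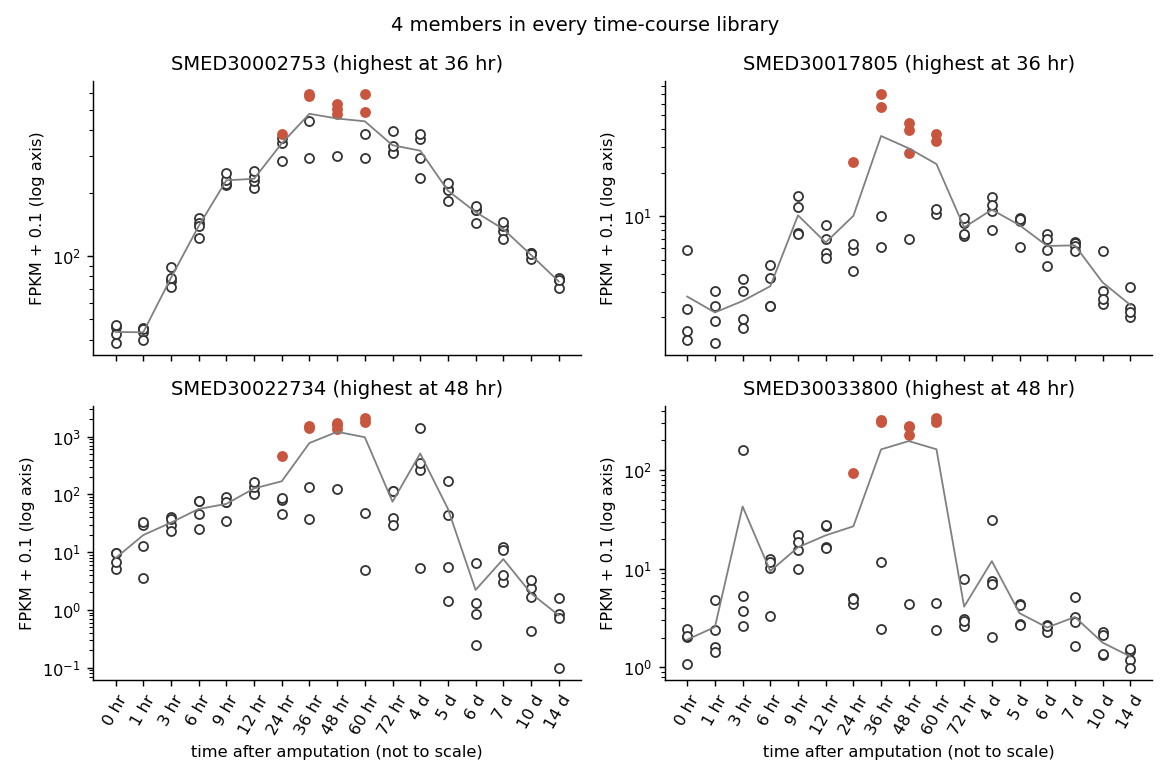
FPKM + 0.1 (vertical axes, logarithmic) of 4 members in every time-course library (points; filled for the 8 libraries that stood apart) by time after amputation (not to scale), with the line through the means of the 4 libraries. In SMED30022734 the filled points at 48 hr lie at 1380 to 1746 FPKM and the open one at 124 FPKM; in SMED30002753 open and filled points lie closer together.

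By Pearson r over the 17 mean log2(FPKM + 1) values, the nearest member had r = 0.978 for SMED30022734, 0.946 for SMED30033800, 0.978 for SMED30002753 and 0.964 for SMED30017805. The nearest member of SMED30002753 was a kept member, and those of the other 3 were not. Between 14 and 30 members had an r over 0.9 with each.

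The Hoechst sorts were not used by the rule. Members named below for a comparison were picked for large called differences and libraries that did not overlap. The lack of overlap in that comparison is therefore a condition of naming and no finding. Differences there are on the log2(FPKM + 1) scale, which understates changes of low transcripts, and a transcript was called at an adjusted p under 0.05 in limma (Benjamini-Hochberg over all transcripts tested) with an absolute log2 difference of at least 1. Between X1 and Xins 132 members could be tested, and 69 did not reach 1 FPKM in 3 of the libraries. Of the 132, 13 were higher in X1 and 86 lower, while 8.41% of all tested transcripts were called higher and 39.9% lower. The median difference of the members was -1.57, and of all tested transcripts -0.68. The most abundant transcript of each library held 37.5% to 41.5% of the reads in X1 and 26.8% to 29.0% in Xins. Whether it was the same transcript in each library was not checked, and the part of such transcripts in these counts was not tested. Median-ratio scaling moved the median of all tested transcripts to -0.00 and gave 18 members higher and 66 lower of 127, beside 22.5% and 24.9% of all.

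Of the 13 members higher in X1, 12 were kept members. Among the 34 kept members tested, 12 were called higher, 13 were called lower and 9 were not called, with a median difference of 0.17 (0.88 after median-ratio scaling). Of 98 other members, 1 was higher and 73 lower, with a median of -1.71 (-1.33 after scaling). Against X2, 12 members were higher in X1 (11 of them kept) and 50 lower (4 kept), beside 5.39% and 19.2% of all tested. In X2 against Xins 5 members were higher, none kept, and 43 lower, 10 of them kept, beside 1.69% and 18.2%; the split of 5 and 43 became 13 (5 kept) and 29 (6 kept) after median-ratio scaling, beside 5.4% and 11.7% of all, and the 5 became 1 to 9 when single libraries were left out. 44 of 132 members were lower in X1 than in both other fractions, 4 of them kept, beside 17.4% of all tested, and 5 were higher in X2 than in both, beside 1.06%.

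SMED30021074, a kept member, was highest in X1. It stood at 503, 569 and 586 FPKM in X1, at 68.6, 65.8 and 65.9 FPKM in X2, and at 30.8, 39.4 and 42.8 FPKM in Xins. The fractions did not overlap. The log2 difference between X1 and Xins was 3.85 ± 0.117 (SE; limma adjusted p = 5.27e-10). In the time course it was at 21.4 ± 1.61 FPKM at 0 hr (SD, n = 4) and 44.3 ± 5.79 FPKM at 48 hr, where the library that did not stand apart was the highest, at 50.0 FPKM. The level at 48 hr was no sharp peak: SMED30021074 was already at 42.9 ± 4.30 FPKM at 9 hr. It stood at 44.2 ± 4.75 FPKM at 36 hr and 43.9 ± 3.41 FPKM at 72 hr.

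SMED30009506, also kept, stood at 92.5, 81.7 and 68.8 FPKM in X1, 7.98, 7.47 and 7.16 FPKM in X2, and 6.01, 6.23 and 5.89 FPKM in Xins. X1 exceeded Xins by 3.53 ± 0.124 and X2 by 3.25 ± 0.124 on the log2 scale (SE; limma adjusted p = 1.33e-09 and 9.54e-09). SMED30010424 exceeded its X2 level in X1 by 3.24 ± 0.264 (limma adjusted p = 1.74e-06), with 19.3, 26.3 and 25.5 FPKM against 1.32, 1.45 and 2.07 FPKM.

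The members lowest in X1 relative to Xins were SMED30024144 and SMED30031649. SMED30024144 stood at 4.35, 4.60 and 4.17 FPKM in X1, at 108, 80.0 and 105 FPKM in X2, and at 1145, 733 and 706 FPKM in Xins, a log2 difference between X1 and Xins of -7.29 ± 0.177 (SE; limma adjusted p = 1.25e-10). SMED30031649 had the same order, with 2.05 ± 0.183 FPKM in X1, 44.6 ± 8.74 FPKM in X2 and 395 ± 113 FPKM in Xins (SD, n = 3) and a difference of -6.99 ± 0.194 (SE; limma adjusted p = 2.87e-10). The 3 fractions did not overlap for either transcript. SMED30029517 and SMED30029103 were lower in X1 than in X2, by -5.50 ± 0.171 and -4.83 ± 0.105 (SE; limma adjusted p = 2.29e-09 and 4.06e-10). SMED30029103 stood at 4.43 to 5.28 FPKM in X1, 152 to 168 FPKM in X2 and 174 to 214 FPKM in Xins.

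SMED30015799 and SMED30024165 were lower in X2 than in Xins. SMED30015799 stood at 7.37, 9.71 and 6.38 FPKM in X2, at 128, 72.1 and 71.1 FPKM in Xins and at 1.49 to 2.42 FPKM in X1, and X2 differed from Xins by -3.33 ± 0.234 (SE; limma adjusted p = 9.02e-07). For SMED30024165 the difference was -3.24 ± 0.319 (SE; limma adjusted p = 9.54e-06), from 3.60, 5.65 and 1.73 FPKM against 59.6, 37.5 and 29.1 FPKM. Neither pair of groups overlapped.

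**Figure D4:**
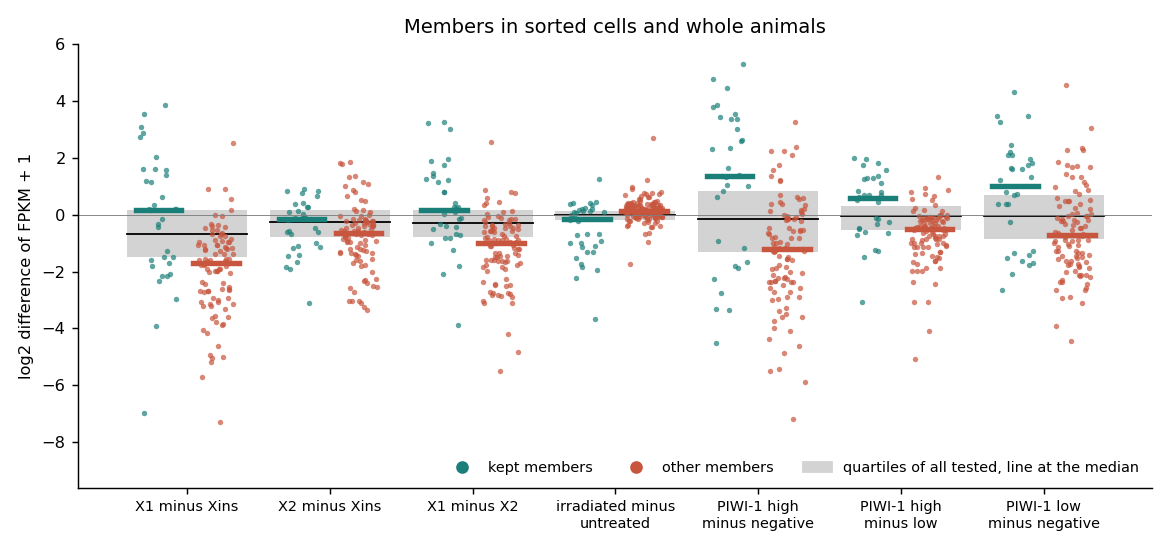
Log2 difference of FPKM + 1 (vertical axis) of each tested member in 7 comparisons, with kept members left and other members right within each; thick bars are their medians, and grey bands and black lines are the quartiles and median of all transcripts tested. In X1 minus Xins the kept median is 0.17 and the other median -1.71; in PIWI-1 high minus negative they are 1.37 and -1.20.

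Of 178 tested in whole animals, 3 were higher and 11 lower 24 hours after 10000 rads, beside 0.168% and 1.74% of all tested transcripts. Of the 11 lower, 10 were kept members (of 36 tested) and 1 was not (of 142 tested). Of these 11, 8 were higher in X1 than in Xins, 2 were lower in X1 and 1 was not called there; 11 of 11 were higher in PIWI-1 high than in negative cells. These shares are near those of all transcripts lower after irradiation, of which 70.7% were higher in X1, 7.19% lower in X1 and 95.3% higher in PIWI-1 high cells. The 8 higher in X1 were all kept members.

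SMED30033583, kept, had the largest decrease after irradiation among members. It stood at 30.3, 27.8 and 38.4 FPKM in untreated worms and at 1.35, 1.37 and 2.16 FPKM in irradiated worms, a log2 difference of -3.66 ± 0.153 (SE; limma adjusted p = 7.88e-06). The groups did not overlap. It was at 979 ± 47.2 FPKM in X1, 251 ± 29.2 FPKM in X2 and 132 ± 5.95 FPKM in Xins (SD, n = 3). In the time course it went from 18.4 ± 2.88 FPKM at 0 hr to 427 ± 66.3 FPKM at 36 hr and 460 ± 63.0 FPKM at 48 hr (SD, n = 4), with every 36 and 48 hr library between 336 and 525 FPKM. Its recovered length was 150 bases, so its FPKM per read is high. SMED30021074, described above for X1, stood at 25.3, 23.5 and 25.5 FPKM in untreated and 3.83, 4.74 and 4.91 FPKM in irradiated worms, a difference of -2.23 ± 0.0845 (SE; limma adjusted p = 5.38e-06).

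SMED30003738, not kept, was higher after irradiation. It stood at 12.7, 15.3 and 18.9 FPKM in untreated worms and 135, 74.8 and 114 FPKM in irradiated worms, a log2 difference of 2.69 ± 0.224 (SE; limma adjusted p = 1.62e-04). In the time course it stood at 1867, 1090 and 1371 FPKM in the 48 hr libraries that stood apart and at 135 FPKM in library 5. SMED30014150, kept, was higher by 1.24 ± 0.133 (SE; limma adjusted p = 5.16e-04), from 3.03, 3.42 and 3.25 FPKM to 9.77, 7.05 and 10.6 FPKM.

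The 2 members lower after irradiation and lower in X1 were SMED30024144 and SMED30031649. SMED30024144 stood at 23.6, 20.1 and 22.8 FPKM in untreated and 5.67, 4.91 and 7.69 FPKM in irradiated worms, a log2 difference of -1.72 ± 0.139 (SE; limma adjusted p = 1.40e-04). SMED30031649 stood at 10.5, 9.77 and 10.6 FPKM against 2.25, 1.81 and 2.46 FPKM, a difference of -1.84 ± 0.0877 (SE; limma adjusted p = 1.37e-05). Neither overlapped between groups. In the time course both were split by the libraries that stood apart: at 48 hr SMED30024144 was at 120 to 137 FPKM in libraries 1, 2 and 4 and 29.2 FPKM in library 5, and SMED30031649 at 53.3 to 64.0 FPKM and 13.9 FPKM.

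**Figure D5:**
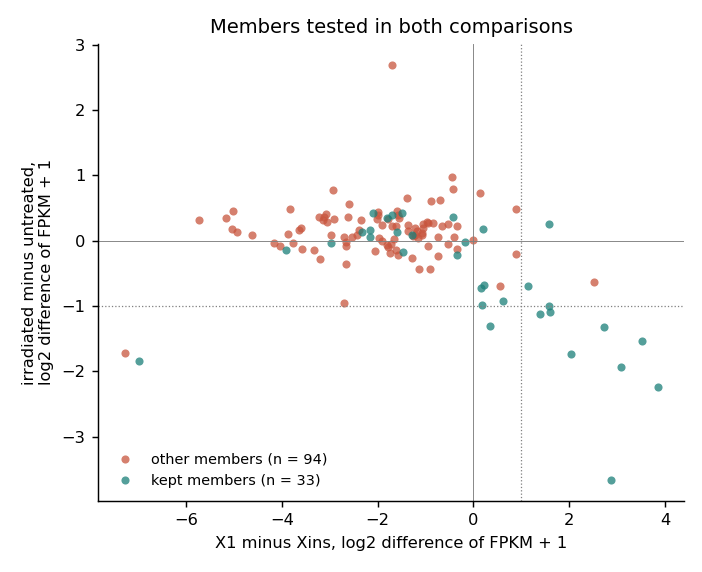
Log2 difference between X1 and Xins (horizontal axis) and between irradiated and untreated worms (vertical axis), both of FPKM + 1, for the 33 kept and 94 other members tested in both; dotted lines mark differences of 1 and -1. Most members higher in X1 and lower after irradiation, at the lower right, are kept members; the 2 points at the far left are SMED30024144 and SMED30031649.

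In the PIWI-1 sorts 134 members were tested. Between PIWI-1 high and negative cells 28 were higher and 61 lower, beside 19.7% and 27.6% of all tested. The kept members (32 tested) had 19 higher and 9 lower, with a median difference of 1.37, and the other members (102 tested) had 9 higher and 52 lower, with a median of -1.20. Between PIWI-1 low and negative cells 29 members were higher, 16 of them kept, and 44 lower, 6 of them kept, beside 13.8% and 18.9%. Between high and low cells 8 were higher, 7 of them kept, and 19 lower, 1 of them kept, beside 2.39% and 7.2%. Same-numbered libraries deviated together. With the replicate number as a block, 11 were higher (10 kept) and 36 lower (4 kept), beside 3.63% and 12.9% of all tested. The other counts in this paragraph are without a block. The most abundant transcript of each library took 16.6% to 41.1% of the reads in PIWI-1 high libraries and 29.5% to 61.2% in negative ones. Whether it was the same transcript in each library was not checked, and the part of such transcripts in these counts was not tested. Of 119 members tested in both kinds of sort, 45 were lower both in X1 than in Xins and in PIWI-1 high than in negative cells, beside 23.3% of all transcripts tested in both.

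SMED30021074 was higher in PIWI-1 high than in negative cells by 5.30 ± 0.359 (SE; limma adjusted p = 8.96e-08), with 239, 211, 155 and 214 FPKM against 4.89, 6.08, 1.68 and 5.32 FPKM and 46.0 to 64.7 FPKM in PIWI-1 low cells. SMED30033583 was higher by 4.77 ± 0.496 (SE; limma adjusted p = 2.19e-06), with 374, 160, 318 and 650 FPKM against 12.7, 13.1, 5.15 and 18.0 FPKM. The PIWI-1 low libraries of SMED30033583 (75.1 to 241 FPKM) also lay above its negative libraries.

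SMED30021196 and SMED30015799, not kept, had their highest means in PIWI-1 negative cells. For SMED30021196 the low and negative libraries overlapped, and in the fit without the block their difference was not called (limma adjusted p = 0.0948). In each same-numbered pair the low library was nevertheless below the negative one. A result with the block is not given for this difference. SMED30021196 stood at 0.422, 30.9, 2.50 and 1.64 FPKM in high, 93.2, 851, 74.9 and 84.4 FPKM in low and 1452, 1255, 216 and 475 FPKM in negative cells. The library numbered 2 was the high one in both the high and the low cells. High cells differed from negative cells by -7.19 ± 0.941 and from low cells by -5.06 ± 0.941 (SE; limma adjusted p = 1.61e-05 and 0.00345). SMED30015799 stood at 0.298, 3.58, 0.570 and 0.578 FPKM in high and 202, 137, 48.8 and 131 FPKM in negative cells, a difference of -5.89 ± 0.567, and differed from low cells by -4.10 ± 0.567 (SE; limma adjusted p = 1.14e-06 and 5.53e-04).

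SMED30010424 and SMED30002348, both kept, were higher in PIWI-1 high than in low cells. SMED30010424 stood at 37.6, 41.9, 21.2 and 28.4 FPKM against 7.67, 7.76, 5.75 and 7.31 FPKM, a difference of 2.00 ± 0.337, and SMED30002348 differed by 1.95 ± 0.303 (SE; limma adjusted p = 0.00194 and 0.00115). SMED30002348 was at 13.9 ± 2.89 FPKM in high, 2.81 ± 0.394 FPKM in low and 0.268 ± 0.169 FPKM in negative cells (SD, n = 4).

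SMED30024144 and SMED30031649 had their highest means in PIWI-1 low cells. In the fit without the block, their differences between high and low cells were not called (limma adjusted p = 0.0795 and 0.0859). Results with the block are not given for these differences. The low libraries nevertheless lay above all high ones, at 131 to 221 against 41.3 to 103 FPKM for SMED30024144. For SMED30031649 they lay at 45.1 to 73.4 against 9.83 to 37.5 FPKM. SMED30024144 stood at 181, 131, 172 and 221 FPKM in low, 52.3, 103, 41.3 and 99.5 FPKM in high and 7.44, 12.1, 2.18 and 7.38 FPKM in negative cells, with low above negative by 4.56 ± 0.448 (SE; limma adjusted p = 1.44e-05). SMED30031649 had 53.4 ± 13.4 FPKM in low, 23.3 ± 12.2 FPKM in high and 1.91 ± 1.34 FPKM in negative cells (SD, n = 4), and low exceeded negative by 4.32 ± 0.447 (SE; limma adjusted p = 1.49e-05). For both, low and negative cells did not overlap. SMED30021654 was lower in low than in negative cells by -3.93 ± 0.426 and SMED30029247 by -3.10 ± 0.378 (SE; limma adjusted p = 1.81e-05 and 4.06e-05). SMED30029247 stood at 15.1, 19.5, 4.44 and 13.2 FPKM in negative cells and below 1 FPKM in all 4 low libraries; in the time course it was at 1458, 1547 and 1551 FPKM in libraries 1, 2 and 4 of 48 hr and at 18.7 FPKM in library 5, against 16.2 to 66.6 FPKM at 0 hr.

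Transcripts with other best times give the setting. By the same rule, 104 transcripts had their best time at 12 or 24 hr and 516 at 60 or 72 hr. Between X1 and Xins 1 of 59 tested of the earlier list was higher and 43 lower, and 164 of 360 of the later list were higher and 59 lower. After irradiation 1 of 85 of the earlier list was higher and 0 were lower, and 2 of 384 of the later list were higher and 112 lower. The 122 transcripts that the rule gave without the 8 libraries had 44 higher and 21 lower in X1 of 101 tested, and 3 higher and 29 lower after irradiation of 105 tested. Of all tested transcripts 8.41% were higher and 39.9% lower in X1, and 0.168% were higher and 1.74% lower after irradiation. The counts of these lists share the comparisons and all come from lists cut by the time course. No test of the difference between lists was made.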

How the data were processed

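Poly(A) RNA from whole worms, regenerating fragments and sorted cells was sequenced. The authors deposited 3 tables of FPKM per transcript; per the submitters' processing notes the tools included Bowtie2 2.2.9 and edgeR, and the build is not given in the sources used here. Members and lists were chosen with earlier results of these data known. Reads were recovered from the FPKM steps (tolerance 0.05 read) for 34990 of 36035 transcripts, with lengths, totals and reads recovered exactly in simulated tables. The recovered reads give depth, length and 1 alternative.

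Comparisons used limma 3.58.1 (R 4.3.3, lmFit and eBayes with trend) on log2(FPKM + 1), keeping transcripts of at least 1 FPKM in 3 libraries (Hoechst sorts, whole animals) or 4 (PIWI-1 sorts), with Benjamini-Hochberg adjustment; all groups of a sort shared one estimate of spread. The fits were tested on simulated reads with 200 changed transcripts. Named transcripts were, per comparison, the 2 members called higher and the 2 called lower with the largest log2 difference, a mean of 5 FPKM or more in whichever group was higher and libraries that did not overlap; for the time course, the 2 largest L at 36 and at 48 hr under the same conditions. No transcript higher in X2 than in Xins met it. The replicate numbers of the PIWI-1 libraries pair them: the deviations of same-numbered libraries correlated at 0.194 to 0.794 in 12 of 12 pairs. The labels do not say what same-numbered libraries shared. The main fits held no block. Alternatives were pseudocount 0.1, no filter, median-ratio scaling, replicate block, leaving out each library, limma voom on recovered reads and, added later, leaving out the 8 time-course libraries or the second PIWI-1 sort. 1 library labelled only as unc total RNA entered no comparison. Tables were analysed with Python 3.11.15, numpy 2.4.6 and pandas 2.3.3.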

Additional observations from a re-analysis of the deposited data

Results flagged for a closer look

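8 of 53 groups of 4 libraries examined had 1 library far from the other 3, where chance gives about 5% of independent groups. The groups reuse the same libraries for several transcripts, so the 8 are not separate events and cannot be read against that 5%. In the members' score these were the high library 6 at 24 hr (0.834) and the low library 5 at 48 hr (0.0118). In the PIWI-1 sorts the second sort was the high one in 5: SMED30021196 at 30.9 FPKM in high and 851 FPKM in low cells, SMED30015799 at 3.58 FPKM in high and 91.7 FPKM in low cells, and SMED30021654 at 2.52 FPKM in low cells. The library numbered 4 was high for SMED30031649 in low cells, at 73.4 FPKM. What set these libraries apart was not tested.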

How the results depend on the processing

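The 26 differences of named members kept their direction and their call under 11 alternatives (Hoechst sorts, whole animals) or 14 (PIWI-1 sorts). These members were named for the largest called differences without overlap, so this says little about the rest of the members. The rule gave 122 members without the libraries that stand apart, and 177 to 302 when single libraries were left out, with 302 (197 shared with the 201) without library 5 of 48 hr. Of the 122, 101 were tested in the Hoechst sorts, 105 after irradiation and 95 in the PIWI-1 sorts. Higher and lower were 44 and 21 in X1 against Xins, beside 8.41% and 39.9% of all tested. They were 3 and 15 in X2 against Xins (1.69% and 18.2% of all), and 34 and 10 in X1 against X2 (5.39% and 19.2%). After irradiation 29 were lower (1.74%). PIWI-1 high against negative gave 66 and 15 (19.7% and 27.6%), and high against low 26 and 5 (2.39% and 7.2%). Low against negative cells gave 55 and 8 (13.8% and 18.9%). Members lower in PIWI-1 high than low cells numbered 19 (7.2% of all tested), but 38 by limma voom (14.6%) and 30 by median-ratio scaling (10.8%). They numbered 36 with pseudocount 0.1 (14.3%), 36 with the replicate block (12.9%) and 29 without the libraries numbered 2 (8.91%). When single libraries were left out they numbered 10 to 20, the 10 without the first high library. The 8 higher then became 4 to 8, with 4 without high library 1, 2 or 4 or low library 1 or 3. Members higher in X2 than Xins numbered 5 (1.69% of all tested), but 13 by median-ratio scaling (5.4%), 3 without a filter (0.753%), 8 with the replicate block (1.73%) and 1 to 9 when single libraries were left out (1 without X2 library 1 or Xins library 2, 2 without X2 library 2 or Xins library 3, 8 without X2 library 3, 9 without Xins library 1). Members higher after irradiation numbered 3 (0.168% of all tested), but 6 by limma voom (0.331%), 6 with pseudocount 0.1 (0.305%) and 3 to 5 when single libraries were left out (5 without irradiated library 2), and the 11 lower (1.74%) were 17 by limma voom (2.82%). For these changes the cause was not tested. In the Hoechst sorts and whole animals pairing by the labels' numbers was not clear. Deviations correlated over 0.1 in 3 of 9 and 1 of 3 pairs. Of the libraries, 5 of 9 and 1 of 6 were closest to one with their own number. There the block gave 13 and 86 members for X1 against Xins and 3 and 11 for irradiation. Apart from the counts given above, the block moved no count by over 1.5 times. The 69 members not tested in the Hoechst sorts were left out by the filter of 1 FPKM. Without it 197 of the 201 were tested, with 13 higher and 85 lower in X1 than Xins, beside 13 and 86 with it. Of all 32821 transcripts then tested 7606 were called in either direction, beside 7408 of 15347 with the filter.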

Other observations

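In the library labelled unc total RNA, which the labels place in no group, the median level of the 201 members was 7.81 FPKM, 11.1 FPKM for the 37 kept members and 6.58 FPKM for the other 164. In intact untreated worms the same medians were 8.53, 10.3 and 8.23 FPKM, taken over the means of 3 libraries.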
